A study of Arabidopsis thaliana with 13 samples.

Results

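Of 22746 Arabidopsis probe sets, 12 were lower in wild-type Col-0 seedlings at both times after the cytokinin 6-benzyl adenine (BA) was given. A probe set was taken as a member when the highest of the 4 Col-0 BA arrays was at most the lowest solvent array divided by 1.5 and the lowest solvent array was at least 50 signal units. The solvent level was high enough in 9134 probe sets, so the 12 members made up 0.131% of them. Class III peroxidases, UDP-glycosyltransferases, expansins, aldehyde dehydrogenases, plastid-encoded genes and the stress factors STZ and WRKY53 were to be left out, and 0 probe sets had to be removed for that reason. The probe annotation gave 5 members 1 gene each (LHCB4.3, IRX15-L, AT3G47980, AT3G50350 and AT3G07000). The other 7 were not listed with a gene and could not be checked against those families. The check read gene symbols and synonyms only. It could therefore miss a gene known only by its locus, such as AT3G47980, AT3G50350 and AT3G07000. The members were thus selected on their Col-0 signals, which are given as values, with no test.

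The 13 arrays measured whole seedlings grown in liquid MS medium. Col-0 seedlings received solvent for 2 h (2 arrays), BA for 15 min (2 arrays) or BA for 120 min (2 arrays), with BA dissolved in diluted KOH. The labels put the Col-0 BA seedlings at 6 days of growth and name no dose of BA. Seedlings carrying 35S::CKX1, in which the constitutive 35S promoter drives a cytokinin oxidase that degrades cytokinins, received solvent for 2 h (3 arrays) or BA for 15 min (4 arrays). No solvent treatment of 15 min was among the groups, so handling for 15 min and BA for 15 min cannot be told apart. Replicates are not said to come from separate cultures, and their spread may be technical. Col-0 120 min array 1 is titled and described as a BA array, whereas control solution stands in its source field, and the title was followed. In whole seedlings, fewer cells of a type and less RNA per cell cannot be told apart.

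Cytokinins are perceived by membrane histidine kinases, which pass phosphate through a relay to response regulators in the nucleus. Type-B regulators activate transcription and type-A regulators dampen the pathway, and transcripts both rise and fall after cytokinin is given. In seedlings the hormone is known for promoting chloroplast development and shoot growth and for restraining root growth. Members with an annotated role belong to the light-harvesting antenna (LHCB4.3) and to secondary wall synthesis (IRX15-L).

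Values are normalized signal intensities in arbitrary units on a linear scale, with values under 1 set to 1. Array medians ran from 30.5 to 39.5 units. The 25S ribosomal RNA control was at 92.5 to 803.7 units in 5 arrays (Col-0 15 min array 2, both Col-0 120 min arrays and array 3 of each CKX1 group) and at most 46.2 units in the other 8. Thus 3 of the 4 Col-0 BA arrays and neither solvent array were among the 5. Both tissues of a seedling were present: the leaf antenna gene LHCB4.1 was at 3940.7 to 8940.2 units and the root beta-glucosidase PYK10 at 2228.6 to 3862.6 units in all arrays. In Col-0, PYK10 had 3163.2 and 3267.4 units with solvent, 2338.6 and 2228.6 units at 15 min of BA and 3350.9 and 3862.6 units at 120 min. AT1G62500, the other root marker matched of 8 listed, had 47.9 and 38.4 units, then 58.0 and 197.1 units, then 121.7 and 115.6 units. Thus PYK10 was below both solvent arrays at 15 min and above them at 120 min, AT1G62500 was above them in all 4 BA arrays, and the part of tissue make-up in the members' levels was not tested.

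The selection depended most on Col-0 15 min array 1. Without it 1028 probe sets met the rule, against 14 without 15 min array 2, 12 without 120 min array 1 and 16 without 120 min array 2. Leaving out solvent array 1 gave 69 and leaving out solvent array 2 gave 155. Leaving out an array can only relax the rule, so the 12 members stay in each of these 6 selections by construction. With no minimum size, 1081 of the 9134 probe sets (11.8%) had all 4 BA arrays below both solvent arrays. In the opposite direction, 41 of 7849 probe sets with all BA arrays at 50 or more (0.522%) had every BA array at least 1.5-fold above both solvent arrays.

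**Figure D1:**
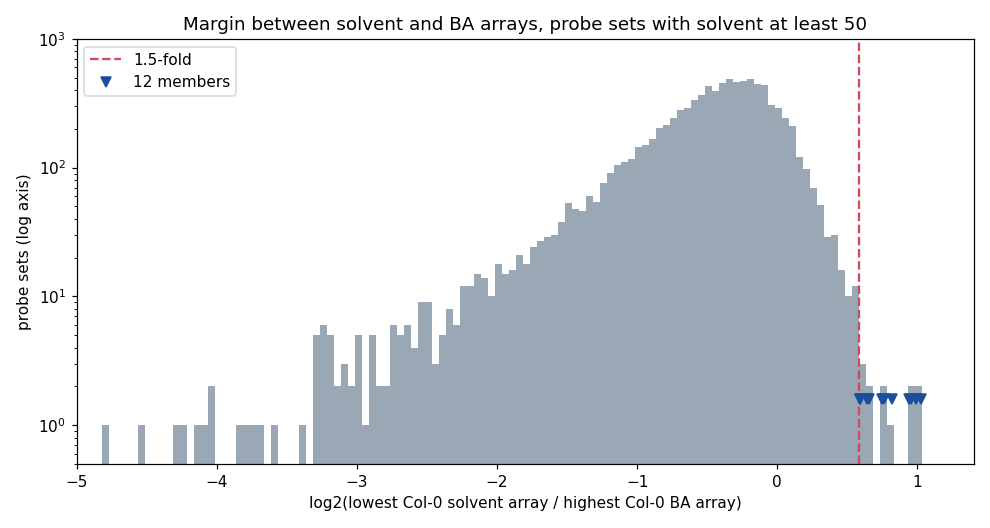
Histogram of the margin between solvent and BA arrays in Col-0 for the 9134 probe sets with both solvent arrays at 50 units or more. The x axis is the log2 ratio of the lowest solvent array to the highest BA array, the y axis is the number of probe sets on a log scale, the dashed line is 1.5-fold and triangles mark the 12 members, whose ratios ran from 1.5 to 2.04.

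The margin of the members, the lowest solvent array over the highest BA array, ran from 1.5 to 2.04 with a median of 1.69. Just inside the limit lay the unlisted probe sets 263913_at (1.504), 264318_at (1.5066) and 252123_at (1.5077). Just outside lay AT5G67460 (1.4987), AT2G04850 (1.4919) and AT1G73600 (1.4902). The members therefore form the end of a continuous range and not a separate group, as the histogram of margins shows.

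LHCB4.3 is an isoform of CP29, a minor antenna protein that links the outer light-harvesting complex to the core of photosystem II. Its signal was 305.6 and 292.0 units in the Col-0 solvent arrays, 151.9 and 120.3 units after 15 min of BA and 133.8 and 124.0 units after 120 min. The 4 BA arrays lay close together and below both solvent arrays. The group mean went from 298.8 ± 9.62 units (SD, n = 2) with solvent to 136.1 ± 22.3 units (n = 2) at 15 min and 128.9 ± 6.93 units (n = 2) at 120 min, which was 2.32-fold below solvent. The level at 15 min and at 120 min thus differed by less than the spread of the 15 min arrays.

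The other CP29 genes on the array, taken as relatives after their values were seen, did not share the low BA signals. LHCB4.1 had 4233.5 and 4977.9 units with solvent, 3940.7 and 6257.7 units at 15 min and 6267.2 and 8940.2 units at 120 min. LHCB4.2 had 2693.2 and 3101.2 units with solvent, 2284.7 and 5089.6 units at 15 min and 4586.8 and 6791.4 units at 120 min. For both, the 120 min arrays were above the solvent arrays, and 15 min array 1 was below them. In CKX1, LHCB4.2 was highest in the arrays numbered 3, at 3750.7 units with solvent and 4455.2 units after BA, and there LHCB4.3 was lowest, at 130.6 and 61.3 units. LHCB4.1 did not share that pattern: it was lowest in CKX1 solvent array 3 (4089.9 units) and highest in CKX1 15 min array 3 (6381.2 units). The 2 CKX1 arrays numbered 3 were also among the 5 with a high 25S signal, and the part of that in these genes' levels was not tested.

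IRX15-L and its close relative IRX15 are known to act together in making xylan, the main hemicellulose of secondary walls in xylem and fibres. IRX15-L had 68.3 and 72.2 units with solvent, 43.3 and 27.0 units at 15 min and 17.2 and 15.8 units at 120 min. Both 120 min arrays were below both 15 min arrays, which were below both solvent arrays. The mean was 70.25 ± 2.76 units (SD, n = 2) with solvent, 35.15 ± 11.5 units at 15 min and 16.5 ± 0.990 units at 120 min. It was 4.26-fold lower at 120 min than with solvent, the largest such ratio of means among the 5 named members. IRX15 itself was at 1.3 to 16.9 units in all 13 arrays, too dim to show whether it followed.

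The remaining named members carry only a locus name in the annotation used here. AT3G50350 had 130.1 and 135.6 units with solvent, 73.7 and 34.8 units at 15 min and 43.8 and 39.8 units at 120 min. Its 15 min arrays lay on either side of the 120 min arrays, and the means were 132.8 ± 3.89, 54.25 ± 27.5 and 41.8 ± 2.83 units (SD, n = 2 each). AT3G07000 had 74.6 and 68.6 units with solvent, 40.8 and 21.9 units at 15 min and 26.2 and 21.6 units at 120 min. The 15 min arrays again straddled the upper 120 min array, and the means were 71.6 ± 4.24 units with solvent, 31.35 ± 13.4 units at 15 min and 23.9 ± 3.25 units at 120 min (n = 2 each).

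AT3G47980 had the widest margin of the named members, 1.94. It had 60.0 and 81.6 units with solvent, 30.5 and 4.4 units at 15 min and 31.0 and 3.9 units at 120 min. One array at each time was near 31 units and the other near 4. With such replicates the mean was 17.45 units at both times, with an SD of 18.5 units at 15 min and 19.2 units at 120 min (n = 2 each).

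Among the 7 unlisted members, 260623_at had the widest span. Its signal was 660.5 and 528.3 units with solvent, 265.5 and 11 units at 15 min and 3.6 and 2.6 units at 120 min. The values at 120 min were near the lower limit of the scale, so no ratio is given for them. Its 2 arrays at 15 min differed more than those of any other member, array 2 being at 0.0414 of array 1.

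Of the other unlisted members, 252123_at was measured at 451.4 and 494.8 units with solvent, 299.4 and 101.7 units at 15 min and 90.4 and 104.0 units at 120 min. Here too 15 min array 2 stood with the 120 min arrays and array 1 lay between them and solvent. In contrast, 262092_at had 89.7 and 89.3 units with solvent, 43.8 and 43.3 units at 15 min and 27.4 and 23.9 units at 120 min, so that its 3 groups were separate and tight. A similar order of levels was seen in 262883_at, with 262.5 and 235.1 units, then 138.7 and 122.3 units, then 48.5 and 59.4 units. It was also seen in 253579_at, with 201.5 and 165.4 units, then 106.4 and 103.6 units, then 47.9 and 60.9 units. In these 3 probe sets 15 min array 2 stood at 0.882 to 0.989 of array 1.

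The last pair lay near the limit of the rule. The signal of 264318_at was 99.3 and 80.0 units with solvent, 53.1 and 31.2 units at 15 min and 15.9 and 19.0 units at 120 min. For 263913_at it was 59.9 and 55.8 units with solvent, 33.3 and 29.4 units at 15 min and 37.1 and 36.2 units at 120 min. The latter was the only member whose 120 min arrays were both above both 15 min arrays.

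**Figure D2:**
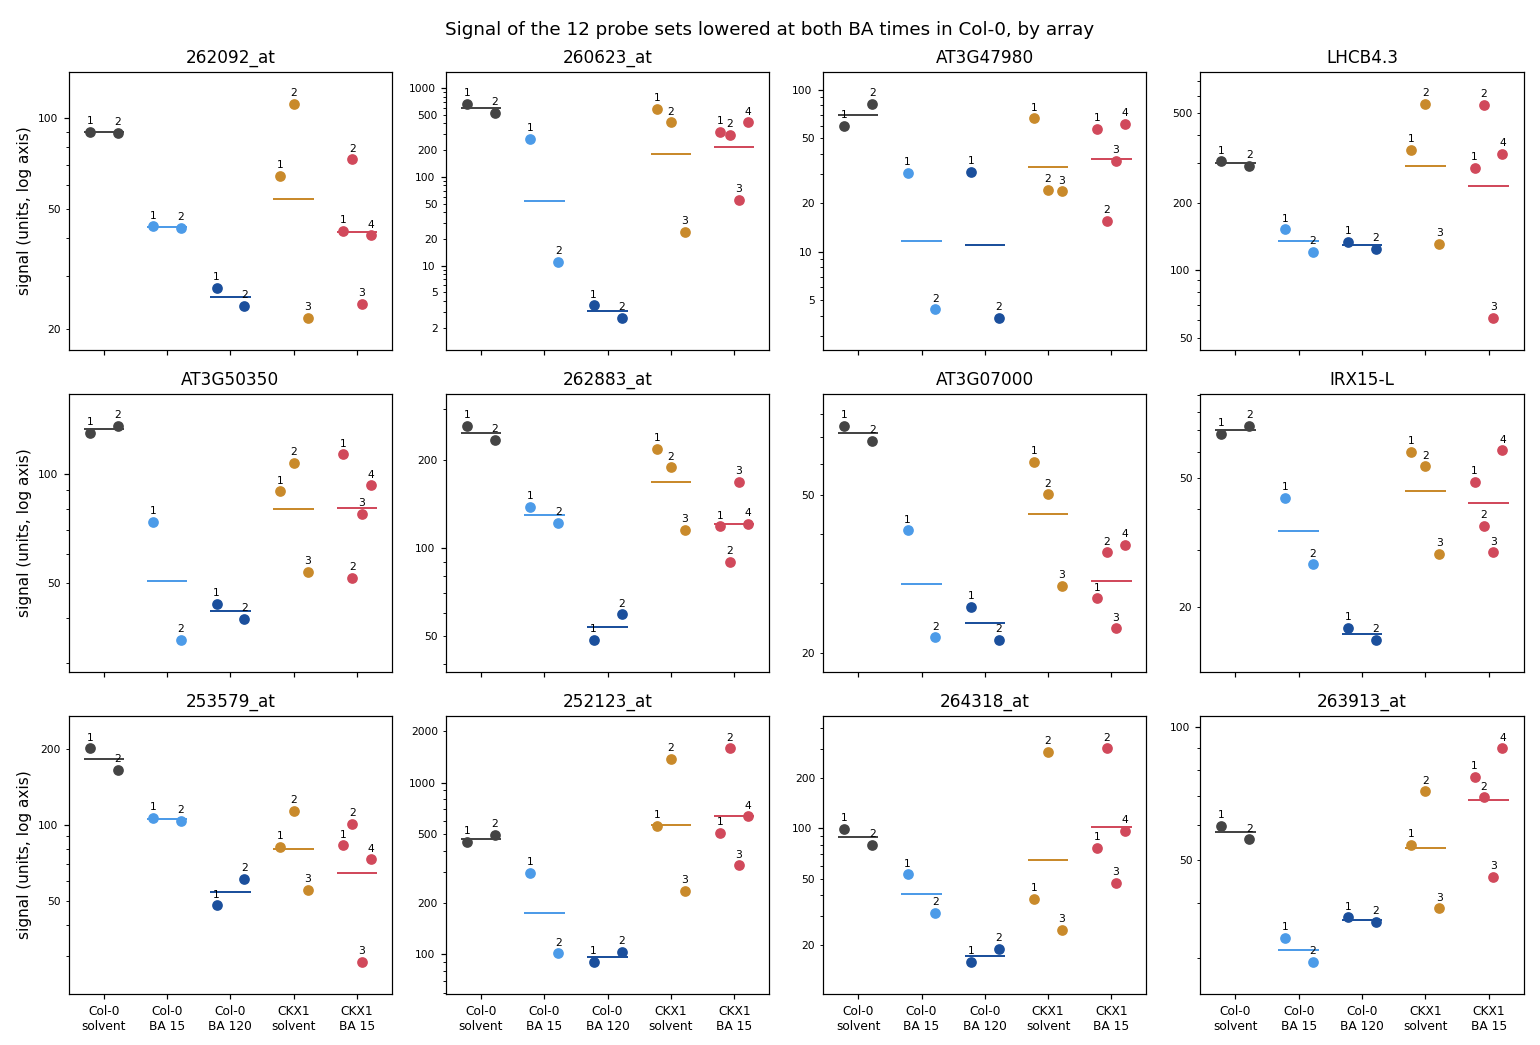
Signal of each of the 12 members in all 13 arrays, in units on log axes that differ between panels. Points are arrays, digits are replicate numbers and bars are geometric means of a group. In Col-0 the 4 BA arrays lie below both solvent arrays in every panel, as the rule requires, while the CKX1 groups overlap in every panel.

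The members differed in how their level at 120 min stood to that at 15 min. Both 120 min arrays were below both 15 min arrays in 6 of 12 members (IRX15-L, 260623_at, 262092_at, 262883_at, 253579_at and 264318_at), against 25.1% of the 9134 probe sets. The ratio of the 15 min mean to the 120 min mean was 2.13 for IRX15-L and 1.70 to 2.42 for 262092_at, 253579_at, 252123_at, 264318_at and 262883_at. It was 1.00 for AT3G47980, 1.06 for LHCB4.3, 1.3 for AT3G50350 and 1.31 for AT3G07000. For 263913_at it was 0.855, so the mean was higher at 120 min. None is given for 260623_at, whose 120 min values were near the lower limit of the scale. These arrays also served to choose the members, and the difference between the times was not tested.

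Within the 15 min group, array 2 was below array 1 in 12 of 12 members, against 55.7% of the 9134 probe sets. Relative to the Col-0 solvent mean, the members had a median log2 ratio of -0.83 in 15 min array 1 (range -1.20 to -0.66) and of -1.45 in array 2 (range -5.75 to -0.82). In the 120 min arrays the medians were -1.82 and -1.99. All probe sets with a solvent signal of at least 50 units had medians between -0.14 and -0.01 in the same 4 arrays. The 25S signal was 16.1 units in 15 min array 1, 92.5 units in array 2 and 695.9 and 548.2 units in the 120 min arrays. It was 46.2 and 18.1 units in the solvent arrays, so BA for 120 min and the higher 25S signal cannot be told apart. All of these member values were used by the rule, and the part of the 25S signal in those at 15 min was not tested.

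**Figure D3:**
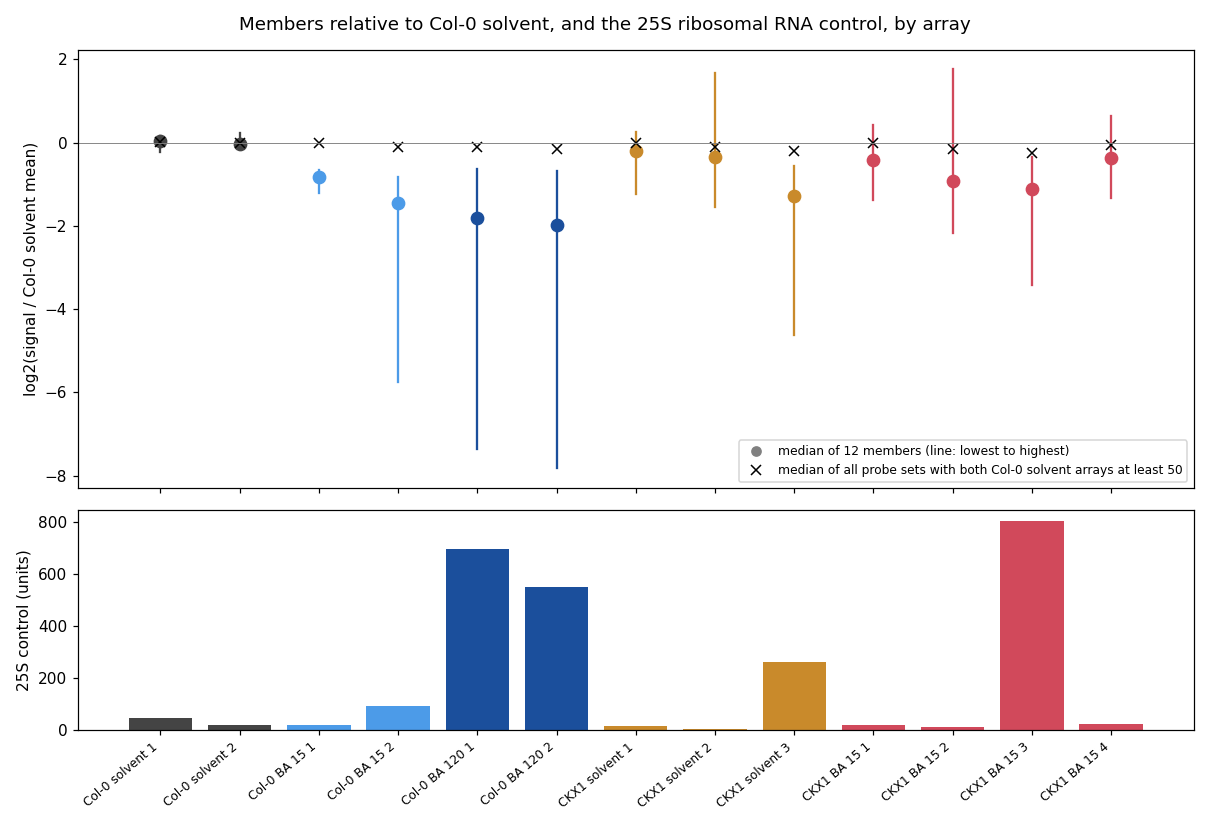
Upper panel: log2 ratio of signal to the mean log2 signal of the Col-0 solvent arrays, with points for the median of the 12 members, lines from the lowest to the highest member and crosses for the median of the 9134 probe sets of comparable solvent signal. Lower panel: signal of the 25S ribosomal RNA control in units. Member medians were lowest in the Col-0 120 min arrays, and CKX1 solvent array 3 stood at -1.29.

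The CKX1 arrays took no part in the choice of members. With solvent, the members' mean signal in CKX1 was 0.455 to 1.53 times that in Col-0, with a median of 0.692, and it was below the Col-0 mean in 9 of 12 members against 57.2% of the 9134 probe sets. All 3 CKX1 solvent arrays were below both Col-0 solvent arrays in 5 of 12, against 16.6%. Because the members had to be high in the Col-0 solvent arrays, these values carry no test. LHCB4.3 stood at 1.14 times, IRX15-L at 0.681 times and AT3G47980 at 0.536 times the Col-0 mean.

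CKX1 solvent array 3, at 260.3 units of 25S, was below solvent arrays 1 and 2 in 12 of 12 members, against 46.2% of the 9134 probe sets. IRX15-L had 60.1, 54.3 and 29.1 units in solvent arrays 1 to 3, LHCB4.3 had 344.5, 550.5 and 130.6 units, and 260623_at had 586.3, 411.7 and 23.9 units. Seedlings of this array received no BA. The values of IRX15-L and LHCB4.3 in it lay within the range of Col-0 after BA, which was 15.8 to 43.3 units for IRX15-L and 120.3 to 151.9 units for LHCB4.3. After BA, CKX1 array 3, at 803.7 units of 25S, was below the other 3 arrays in 9 of 12 members, against 43.5%. The part of the 25S signal, or of what it marks, in the members' levels was not tested.

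Whether BA lowered the members in CKX1 after 15 min was tested with limma over 15922 probe sets, of which 1, the unlisted 247406_at, passed an adjusted p under 0.05 (0.00628%). All 12 members were bright enough to be tested. Of the members 0 of 12 passed, each with an adjusted p of 1, and 0 had an unadjusted p under 0.05, against 115 of all probe sets (0.722%). The log2 fold change was negative in 6 of 12 members, against 50.2% of all probe sets tested. Its median was -0.05 over the members and -0.0011 over all. This fit took no account of replicate numbers, so spread shared by arrays of the same number stayed in its error. With the number as a fixed block, 9 of 12 values were negative (median -0.18), and as a random block 7 of 12 (median -0.13). The share of negative values over all probe sets was not counted in these 2 fits. CKX1 15 min array 4 has no solvent array of its number, so the fixed-block estimates equal those without it. With the number as a fixed or random block, 1 of 12 members had an unadjusted p under 0.05 in each fit. Without CKX1 solvent array 2 there was 1, and without CKX1 solvent array 3 there was 1. Without both CKX1 arrays numbered 3 there were 2, and the other fits tried gave 0. In these fits 0 members passed. The share over all probe sets was not counted, so these counts cannot be set against a background.

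In no member did the CKX1 groups separate, with 0 of 12 lower without overlap against 0.668% and 0 of 12 higher against 0.58% of the 9134 probe sets. AT3G07000 had the lowest value of the named members, -0.51 (SE 0.32, 95% confidence interval -1.24 to 0.21), with 60.6, 50.2 and 29.5 units with solvent and 27.5, 35.9, 23.1 and 37.5 units after BA. It was lower after BA in each of the 3 pairs of arrays with the same number. LHCB4.3 had -0.29 (SE 0.75, interval -2 to 1.42), with 285.2, 546.9, 61.3 and 329.3 units after BA. Its SD was 199.1 units after BA and 210.0 units with solvent. LHCB4.3 too was lower in each pair, at 0.828, 0.994 and 0.469 times the solvent array. These were the 2 of 12 members lower in all pairs, against 14.9% of the 9134 probe sets, and 1 of 12, 264318_at, was higher in all pairs, against 10.8%. By pair, 8 of 12 members were lower after BA in pair 1 (49.96% of the 9134 probe sets), 10 in pair 2 (52.9%) and 3 in pair 3 (54.8%).

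IRX15-L had -0.12 (SE 0.35, interval -0.91 to 0.68), with 48.5, 35.6, 29.4 and 60.7 units after BA. AT3G50350 had 0.0070 (SE 0.35, interval -0.79 to 0.80), with 89.5, 107.3 and 53.7 units with solvent and 113.2, 51.6, 77.7 and 93.0 units after BA. AT3G47980 had 0.15 (SE 0.52, interval -1.04 to 1.35), with 66.4, 24.0 and 23.5 units with solvent and 57.1, 15.5, 36.2 and 61.4 units after BA. The unlisted members ran from -0.46 for 262883_at (SE 0.32) to 0.61 for 264318_at (SE 0.86).

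These intervals do not show that the members were unaffected in CKX1. A log2 change of -1 on the scale of the fit lay inside the interval of 9 of the 12 members. It lay outside that of AT3G50350, IRX15-L and 263913_at. The fit adds 3.39 units to each signal, so a 2-fold fall of a dim probe set is a smaller change than -1. For IRX15-L, with a lower limit of -0.91, a 2-fold fall in signal is therefore not clearly excluded. Array 3 decided the balance of signs: without CKX1 solvent array 3, 11 of 12 members had a negative value (median -0.50), without CKX1 15 min array 3 there were 3, and without both there were 10 (median -0.24). In all of these fits 0 members passed.

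**Figure D4:**
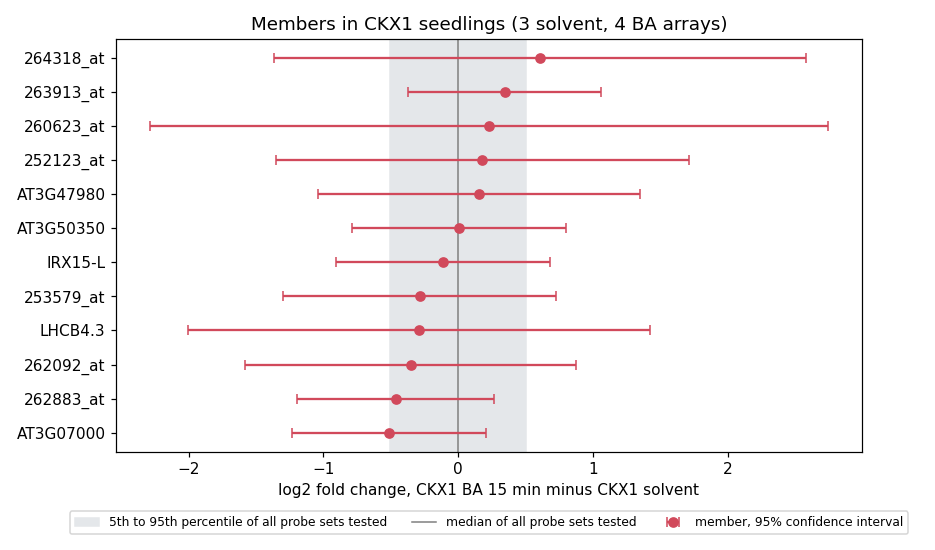
Log2 fold change of the 12 members in CKX1 seedlings, 15 min of BA against solvent, from limma on 3 solvent and 4 BA arrays. Points are estimates, bars are 95% confidence intervals, the grey band spans the 5th to 95th percentile of the estimates of all 15922 probe sets tested and the grey line is their median. Every interval includes 0.

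None of the 5 members with a gene was on the pathway lists examined, and for the 7 unlisted members this could not be checked. The 9 lists (phosphate starvation, iron uptake, nitrate, sulfate, jasmonate, touch and calcium, rapid stress factors, cytokinin signalling and metabolism, ABA and cold) held 84 loci, and 7 of these loci were matched to a probe set annotated with 1 gene. Of the 7, 3 were bright enough for the rule, and 0 met it. Of the cytokinin list only ARR15 and ARR16 were matched, type-A regulators with 11.3 and 2.7 units and 19.6 and 16.2 units in the Col-0 solvent arrays, too dim for the rule. In CKX1 0 of the 5 list genes that could be tested passed, with ARR15 at 1.4 (SE 0.49), ARR16 at 0.68 (SE 0.57), LTI30 at 0.35 (SE 0.28), COR47 at 0.33 (SE 0.30) and WRKY6 at 0.21 (SE 0.40). No locus of the phosphate, nitrate, sulfate, jasmonate and touch lists was matched to a probe set annotated with 1 gene, although unlisted probe sets may measure them, and BHLH101 of iron uptake was too dim to be tested.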

How the data were processed

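The deposited values are normalized signal intensities on a linear scale, which per the labels' descriptions a service centre returned after hybridising biotin-labelled cRNA made from 5 µg of total RNA. Its software, scaling and genome build were not given in the sources used here. Scaling arrays to a common level assumes that most signal is alike in all of them. Groups came from sample titles, all 13 columns were used, and 64 of 22810 probe sets were left out as controls. The probe annotation listed 13513 of 22746 with 1 gene, 503 with several and left 8730 unlisted, which says nothing of whether they have a gene. The RefSeq gene table (TAIR10.1) held 13436 of the former.

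Members were chosen on deposited signals (floor 1). For CKX1, log2(signal + 3.39), the pseudocount being 0.1 of the table's median of 33.9, was fitted with limma 3.58.1 (R 4.3.3) to the 7 CKX1 arrays alone, so that Col-0 arrays that chose the members add nothing to the spread. Fold changes are on that scale, which makes the change of a dim probe set look smaller. Probe sets under the 30th percentile of mean log2 signal were filtered, the variance had an intensity trend and 5 residual degrees of freedom, and Benjamini-Hochberg adjustment ran over all 15922 tested. The fit was run on simulated data in which the arrays varied independently. That run cannot show how the fit behaves when arrays of the same number vary together.

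CKX1 arrays of the same title number deviated from their group means together (correlations of 0.63, 0.59 and 0.73 across probe sets, against -0.51 to 0.47 between numbers). Centring on group means forces some of the values between numbers to be negative. The highest of these, 0.47, was that of solvent array 1 with 15 min array 4, which has no solvent partner. The numbers were taken to pair the arrays in the counts by pair and the block fits, and the main fit left them out. Members and lists were chosen with earlier results of these data known. Named genes were to be the members with 1 gene and at most 4 unlisted probe sets, and all 7 were named once only 12 members were found. Class terms were searched in gene names, where 94.6% of the 4608 bright probe sets with 1 gene had none, so that check is void. Promoters were not analysed here.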

Additional observations from a re-analysis of the deposited data

How the results depend on the processing

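The number of members was 15 with arrays scaled to the same median (9 of the 12 kept) and 20 after quantile normalization (11 kept), with all 5 named members in both. It was 119 at a minimum log2 ratio of 0.32 in place of 0.58, 1 at a ratio of 2 (262092_at), 24 with a solvent signal of at least 25 units and 6 with at least 100, and 12 to 1028 leaving out 1 Col-0 array. In CKX1, 0 members passed in any of 18 other settings (lowest adjusted p = 0.915, limma). Their median log2 fold change ran from -0.50 to 0.15 leaving out 1 CKX1 array and was -0.18 with the replicate block as a fixed term, which changed no call and gave 9 of 12 negative values. Negative values numbered 3 to 11 leaving out 1 array and 10 without both arrays numbered 3. The single call over all probe sets was lost (0) with median-centred arrays, quantile normalization, a pseudocount of 1, no filter, no intensity trend, any 1 array left out or both arrays numbered 3 left out. Of 216 values of single members in other settings, 27 changed sign. With the fixed block 260623_at had -0.0750, AT3G47980 -0.0614 and AT3G50350 -0.0584, and AT3G50350 had -0.0343 with a random block and -0.0302 with median-centred arrays. Without both arrays numbered 3, 260623_at had -0.52, AT3G47980 -0.0583, AT3G50350 -0.25 and 252123_at -0.13. Leaving out 1 array, the ranges were -0.95 to 0.14 for 262092_at, -1.17 to 1.05 for 260623_at, -0.0795 to 0.61 for AT3G47980, -0.86 to 0.34 for LHCB4.3 and -0.27 to 0.21 for AT3G50350. They were -0.41 to 0.0688 for IRX15-L, -0.54 to 0.0798 for 253579_at, -0.45 to 0.82 for 252123_at and -0.0485 to 1.63 for 264318_at. The cause of these changes was not tested. With 2 to 4 arrays in a group, their number limits the precision.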

Other observations

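At the looser minimum margin, a log2 ratio of 0.32 in place of 0.58, 59 of 119 probe sets had 1 gene, and the flavonoid genes DFR and CHIL were among them. They were singled out after their values were seen and carry no test. Values of other flavonoid genes are not given here, so these 2 do not speak for the pathway. DFR, the reductase that leads to anthocyanins, had 102.7 and 63.9 units in Col-0 with solvent, 51.1 and 22.9 units after 15 min of BA and 29.5 and 25.4 units after 120 min. CHIL, a chalcone isomerase-like protein that aids flavonoid synthesis, had 146.2 and 207.2 units, then 107.8 and 81.8 units, then 27.3 and 60.4 units. For both, array 2 was below array 1 at 15 min. In CKX1 the mean of DFR was 59.5 units with solvent and 56.8 units after BA, and that of CHIL was 186.2 and 182.7 units. The DFR means rested largely on array 2 of each group (112.1 and 134.3 units), the other CKX1 arrays being at 21.0 to 45.3 units. DFR was lowest in CKX1 solvent array 3 (21.0 units), whereas after BA its array 3 (28.1 units) was level with array 1 (28.6 units). CHIL was lowest in array 3 of both CKX1 groups (128.4 and 110.6 units).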
